A study of Mus musculus and Homo sapiens with 24 samples.

Results

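The collagen genes were followed over the differentiation of 2 established skeletal myoblast lines. Members were the genes whose symbol, ignoring case, has the form COL, a number, A and a number, with at least 10 counts in at least 4 of the 12 libraries of a line. Of 45 such symbols in the deposited tables, 33 of 44 met the count rule in the mouse line C2C12 and 39 of 44 in the human line LHCN-M2, among 56748 and 58735 gene rows. A total of 42 were measured in at least 1 line and 30 in both. Just inside the rule were Col15a1 and Col23a1 (5 libraries of C2C12) and COL17A1, COL23A1 and COL26A1 (4 libraries of LHCN-M2). Just outside it, with 3 libraries, were Col22a1, Col4a4 and Col6a5 in C2C12 and COL20A1 and COL2A1 in LHCN-M2.

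C2C12 is a subclone of a mouse myoblast line, and LHCN-M2 is an immortalised human myoblast line; both stop dividing, fuse and form myotubes under differentiation conditions. Polyadenylated RNA was sequenced at day 0, day 1 and day 6 in C2C12 and at day 0, day 1 and day 12 in LHCN-M2, with 4 libraries in each of the 6 groups and 24 in all. Every library has the genotype label control, and the labels name no treatment or medium. Each species is represented by 1 line, so line and species cannot be told apart. The labels do not say that replicates were separate cultures, so each p-value reflects library-to-library spread, and that spread may be technical.

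Collagens are triple-helical proteins of the extracellular matrix, built from 3 chains in which glycine recurs at a fixed spacing. Fibrillar collagens form the load-bearing fibrils, the fibril-associated collagens coat them, and basement membrane collagen forms the sheet that surrounds each muscle fibre. Beaded-filament collagen links that sheet to the fibrils of the endomysium, the connective tissue around single fibres, and faults in its chains cause congenital muscular dystrophies. The chains of 1 molecule come from separate genes, so the balance between partner genes is part of what is described here.

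The promoters of 5 mouse members are shown as examples, taken from genes whose window overlaps no annotated exon. Their behaviour in C2C12, described next, differed. Col3a1 ended at its starting level, and Col5a1 and its partner Col11a1 fell by different amounts. Col4a6 fell further than its neighbour Col4a5, and Col23a1 rose the most. Each run is the 200 bases before the annotated start in the RefSeq promoter table (GRCm38.p6), 5′ to 3′ on the strand of the gene, and none of it lies in an exon of the GENCODE M21 annotation. Capitals mark every match, on either strand, to 4 motifs: the TATA box, with the letters TATAAA; the CCAAT box, spelled as its name; the GC box, with the letters GGGCGG; and the E-box, with the letters CANNTG, a site that myogenic regulators such as MyoD can bind. No matches of different motifs overlap in these windows.
Col3a1 (chr1:45311338-45311537, + strand): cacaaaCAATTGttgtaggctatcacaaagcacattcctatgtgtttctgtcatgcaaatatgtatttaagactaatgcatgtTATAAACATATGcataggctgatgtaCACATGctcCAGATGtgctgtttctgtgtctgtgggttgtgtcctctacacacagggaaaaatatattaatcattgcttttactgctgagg
Col5a1 (chr2:27886225-27886424, + strand): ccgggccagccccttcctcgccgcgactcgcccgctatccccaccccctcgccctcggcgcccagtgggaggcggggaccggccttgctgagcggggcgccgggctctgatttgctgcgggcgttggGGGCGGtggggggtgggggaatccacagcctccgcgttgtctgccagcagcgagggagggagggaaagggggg
Col11a1 (chr3:114030340-114030539, + strand): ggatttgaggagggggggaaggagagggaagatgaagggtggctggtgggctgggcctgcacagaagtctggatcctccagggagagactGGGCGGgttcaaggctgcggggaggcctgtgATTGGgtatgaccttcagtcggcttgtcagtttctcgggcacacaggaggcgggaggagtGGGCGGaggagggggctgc
Col4a6 (chrX:141474077-141474276, - strand): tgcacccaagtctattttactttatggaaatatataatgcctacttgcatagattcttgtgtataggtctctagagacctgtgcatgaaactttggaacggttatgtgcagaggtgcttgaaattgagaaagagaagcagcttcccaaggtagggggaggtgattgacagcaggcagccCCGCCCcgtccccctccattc
Col23a1 (chr11:51289720-51289919, + strand): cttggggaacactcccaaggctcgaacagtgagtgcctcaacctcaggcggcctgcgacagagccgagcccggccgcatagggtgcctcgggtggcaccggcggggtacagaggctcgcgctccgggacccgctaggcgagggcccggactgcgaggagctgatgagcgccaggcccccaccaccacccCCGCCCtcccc
The Col3a1 window held 1 TATA box, 117 bases before the start, and 4 E-boxes, with 37.5% G and C. The Col5a1, Col4a6 and Col23a1 windows each held 1 GC box and no other match, at 75.5%, 47.0% and 72.5% G and C. The Col11a1 window held 2 GC boxes and 1 CCAAT box, at 64.0% G and C. Among the 200-base windows of all 32851 entries of the table, 9.96% held a TATA box, 29.35% a CCAAT box, 31.05% a GC box and 58.20% an E-box. Col4a6 and Col4a5 lie head to head, with 1342 bases between their starts. A match is a description of the letters, and nothing about a factor follows from it. Of the collagen symbols, 35 have an entry in that table.

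The depth was 32795699 to 43827517 counts a library for C2C12, against 33030258 to 48546621 for LHCN-M2. Levels are given as CPM, counts scaled to a fixed library size after TMM normalization. The LHCN-M2 library of day 0 replicate 2 stood apart: it scored -72.5 on the third principal component, against 19.1 to 29.9 in the other day 0 libraries, and day 12 replicate 1 stood apart less, at -22.3 against 4.41 to 9.27. For the genes whose calls change without both of these LHCN-M2 libraries, the value is given beside the result. In C2C12, day 6 replicate 2 lay furthest from its group on the third component, at 44.5 against -28.3 to -6.55. The labelled cell type held against its markers: the summed level of 6 differentiated-muscle markers rose from between 8.73 and 11.5 CPM at day 0 to between 1630.5 and 1731.5 at day 6 in C2C12, and from between 1245 and 1605 to between 9551 and 10113 at day 12 in LHCN-M2. The myoblast markers were detected in both lines, except PAX7, which was at 0 in every LHCN-M2 library; MYOG was at 0 there at day 0.

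Markers of other collagen-producing cells were also present and moved with the days. The summed level of 9 fibroblast markers ran from 501 to 553 CPM at day 0 and from 878 to 923 at day 6 in C2C12. In LHCN-M2 it ran from 397 to 482 at day 0 and from 980.2 to 1025 at day 12. The sum was higher at the last day in both lines, but single markers differed. Of 7 tested in C2C12, 4 were higher and 2 lower, beside 33.1% and 32.5% of all genes tested. Of 7 tested in LHCN-M2, 6 were higher and 1 lower, beside 27.1% and 27.5%. In that list TCF21 and THY1 were at 0 at days 0 and 6 in C2C12, as was DPT at day 0 and TCF21 at day 12 in LHCN-M2. The 5 smooth muscle markers, none of them at 0, summed to between 1609.6 and 1762 CPM at day 0 in C2C12. Their sum was between 2419 and 3108 at day 1 and between 1336 and 1533 at day 6. All 4 tested were lower at day 6 (median log2 change -2.18), beside 32.5% of all genes tested. In LHCN-M2 the sum was between 234 and 382 at day 0, 356 and 388 at day 1, and 782 and 857 at day 12. There 3 of the 4 tested were higher at day 12 and none lower, beside 27.1% and 27.5% of all genes tested. Tendon markers summed to between 39.9 and 51.6 CPM at day 0 and between 104 and 125 at day 6 in C2C12, with THBS4 at 0. In LHCN-M2 they summed to between 2.06 and 3.85 at day 0 and between 14.6 and 20.1 at day 12, with TNMD at 0. Of the tendon markers tested, 1 was higher and 1 lower at the last day in C2C12, and 2 were higher and 1 lower in LHCN-M2. The part of all these markers in the collagen results was not tested.

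Collagen genes took a falling share of all counts in C2C12 and a rising share in LHCN-M2. In C2C12 the share was 2.53% ± 0.177 (SD, n = 4) at day 0, 2.44% ± 0.104 at day 1 and 1.48% ± 0.0552 at day 6. In LHCN-M2 it was 1.41% ± 0.0526 at day 0, 2.09% ± 0.107 at day 1 and 3.14% ± 0.0563 at day 12. The 4 libraries of the last day lay below all 8 earlier libraries in C2C12 (1.40% to 1.52%) and above them in LHCN-M2 (3.06% to 3.20%). Fibrillar collagens made up most of the collagen counts throughout, between 72.3% and 84.8% of them as a group mean in C2C12 and between 79.5% and 87.1% in LHCN-M2.

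**Figure D1:**
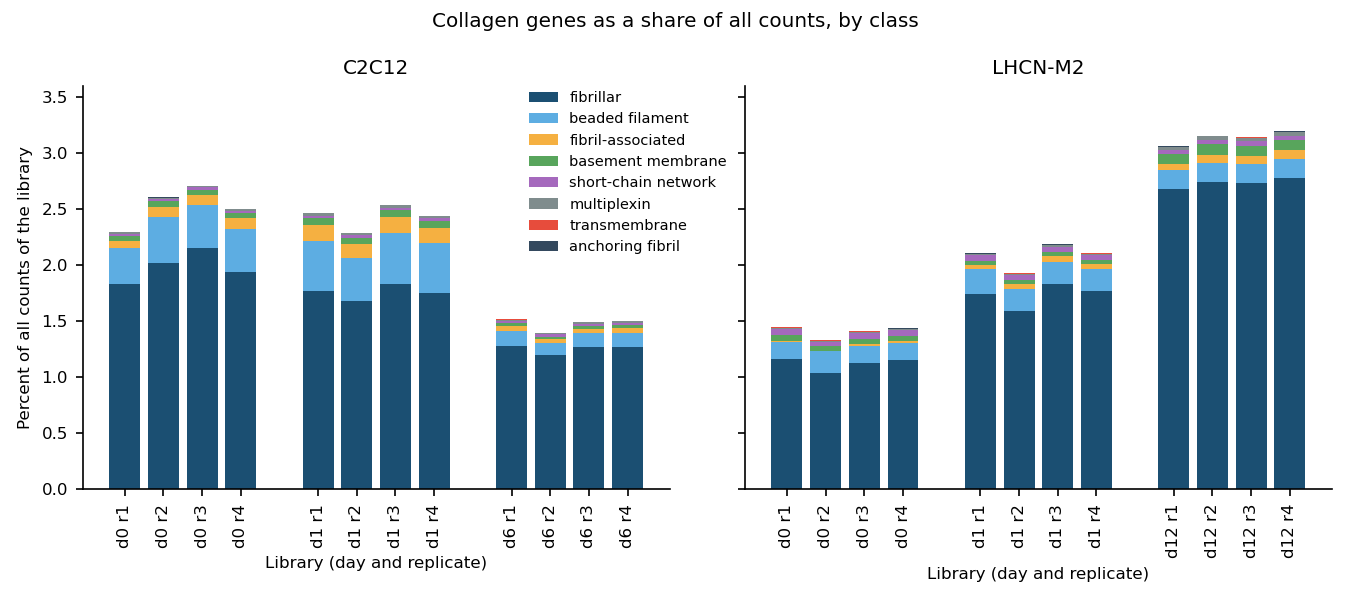
Percent of all counts of each library (y axis) that fell in collagen genes, stacked by class, for the 12 libraries of each line (x axis, day and replicate). Collagen counts averaged 2.53%, 2.44% and 1.48% over the days in C2C12 and 1.41%, 2.09% and 3.14% in LHCN-M2, and the fibrillar class is the largest block in every library.

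Genes were called higher or lower when edgeR's quasi-likelihood test gave a Benjamini-Hochberg adjusted p under 0.05 over all genes tested in a line (17065 in C2C12, 18214 in LHCN-M2). This took in 32 of the 33 members in C2C12, Col15a1 having too few counts, and all 39 in LHCN-M2. In C2C12 at day 1 against day 0, 13 members were higher and 8 lower, with 25.9% of all genes tested higher and 24.4% lower. The members' median log2 change was 0.25, against -0.01 over all genes. At day 6 against day 0, 4 members were higher and 23 lower, with a background of 33.1% higher and 32.5% lower and a median of -0.96 against -0.03. Between day 1 and day 6, 3 rose and 24 fell, with a background of 32.8% and 28.6% and a median of -1.28 against 0.02. Col23a1, among those higher at day 6, met the count rule through its day 6 libraries, so its calls were favoured by that rule. Col20a1 and Col25a1, among those lower at day 6, met it in 6 libraries each, through earlier days where they were higher. Their falls were favoured in the same way. In these bulk libraries, fewer cells of a type and less RNA per cell cannot be told apart.

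In LHCN-M2 more members rose than fell in each comparison. At day 1 against day 0, 23 members were higher and 7 lower, with 23.4% and 23.5% of all genes tested, and a median log2 change of 0.61 against 0.03. At day 12 against day 0, 27 were higher and 7 lower, with a background of 27.1% and 27.5% and a median of 1.20 against -0.01. From day 1 to day 12, 24 rose and 8 fell, with a background of 20.9% and 18.8% and a median of 0.93 against -0.00. Comparisons within a line share their libraries, so these counts are not independent of each other. COL23A1 and COL26A1 met the count rule only through the day 12 libraries, where they were high. Their calls at day 12 were therefore favoured by that rule. COL6A5, among those lower, met it in 6 libraries and was highest at day 0, so its falls were favoured too. Over the 3 days, 16 of the 39 members rose at both steps, as did 5.89% of all genes tested. The day 1 calls of COL10A1, COL16A1, COL26A1, COL4A4 and COL5A1 among them were lost under at least 1 alternative setting. In C2C12, 11 of 32 members rose at day 1 and then fell, and 6 fell at both steps, against 10.8% and 5.84% of all genes tested.

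Direct tests compared the changes of the lines. The test of the difference, the LHCN-M2 log2 change minus that of C2C12, ran over 10953 symbols found in both tables, among them 29 members. At day 1, 13 members had a higher change in LHCN-M2 and 8 a lower one, with a background of 26.0% and 34.0%. At the last day, which is day 12 in LHCN-M2 and day 6 in C2C12 and so not the same time, 22 were higher and 5 lower, with a background of 31.2% and 40.0%. The members' median difference was 2.13, against -0.13 over all symbols. Of the 29, 17 were called lower in C2C12 and higher in LHCN-M2, 2 lower in both (COL7A1 and COL27A1), 2 higher in C2C12 and lower in LHCN-M2 (COL8A1 and COL28A1) and 1 higher in both (COL23A1). Over all 10953 symbols these shares were 10.7%, 11.1%, 15.8% and 11.1%, in the same order. COL23A1 met the count rule in both lines through its last-day libraries, where it was high, so its calls were favoured by that rule. Mouse Col25a1, among the 17, met it through its earlier days, where it was higher, so its fall was favoured too.

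**Figure D2:**
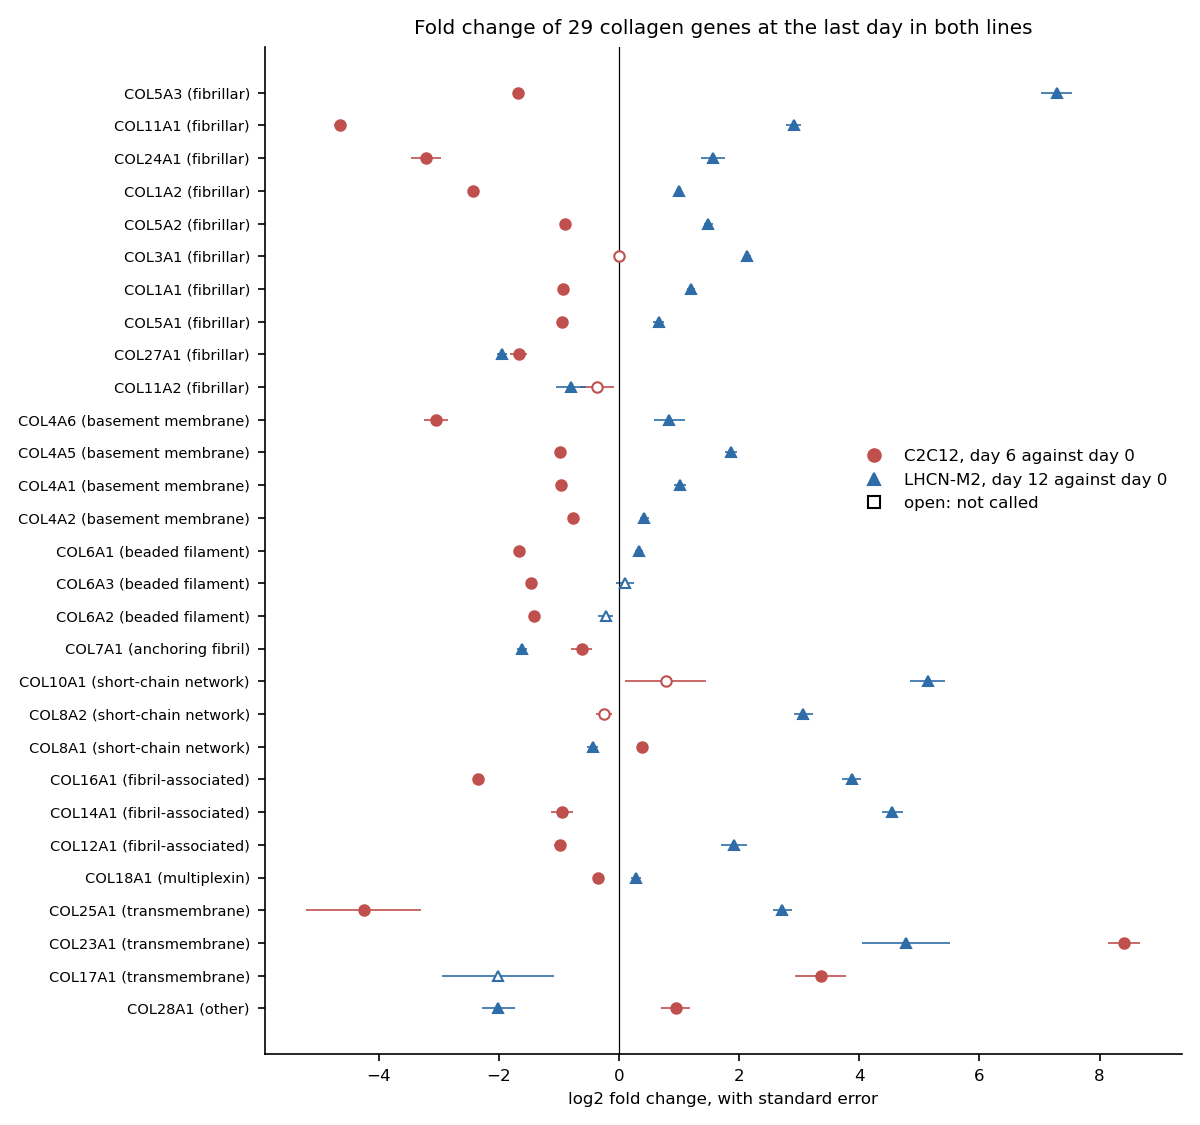
The log2 fold change of the last day against day 0 with its standard error (x axis) for 29 collagen genes (y axis, with class), in C2C12 (circles, day 6) and LHCN-M2 (triangles, day 12); open symbols were not called. In 17 of the 29 the circle is filled and left of 0 and the triangle filled and right of it, from COL18A1 at -0.35 and 0.28 to COL5A3 at -1.68 and 7.29.

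Among the fibrillar collagens, 8 of 10 fell in C2C12 by day 6 and none rose, and 8 of 10 rose in LHCN-M2 by day 12 while 2 fell. Of all genes tested, 33.1% rose and 32.5% fell in C2C12, and 27.1% and 27.5% did in LHCN-M2. The class medians were -1.31 and 1.34 on the log2 scale. At day 1 the split was 2 higher and 6 lower in C2C12 and 9 higher and none lower in LHCN-M2. The background then was 25.9% higher and 24.4% lower in C2C12, and 23.4% and 23.5% in LHCN-M2.

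Type I collagen, the main fibril protein of most connective tissue, is made of chains from COL1A1 and COL1A2. Col1a1 stood at 766, 973, 1012 and 904 CPM in the 4 C2C12 libraries of day 0, at 565, 537, 623 and 628 at day 1 and at 484, 467, 471 and 497 at day 6. The days did not overlap, and the log2 change at day 6 was -0.93 ± 0.07 (SE; adjusted p = 2.36e-10). Col1a2, at 4748, 5235, 5693 and 4968 CPM at day 0, 3345, 3169.7, 3631 and 3349 at day 1 and 987, 938, 946 and 974 at day 6, fell at both steps with no overlap between days. It changed by -2.42 ± 0.06 by day 6 (adjusted p = 6.44e-19). Per kb of the deposited gene length, which makes levels of different genes roughly comparable, the ratio of Col1a1 to Col1a2 was 0.335 ± 0.0204 (SD, n = 4) at day 0, 0.330 ± 0.0167 at day 1 and 0.945 ± 0.0156 at day 6. At day 6 the per-kb levels of the partner chains were close to each other. These levels rest on deposited lengths of 6563 bases for Col1a1 and 12426 for Col1a2, and in CPM Col1a2 stayed higher.

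In LHCN-M2 both chains rose. The human COL1A1 gene (17:50183289-50201632, - strand, GRCh38, 1 of the builds in the submitters' processing notes) stood at 5828, 5600.0, 5598 and 5768 CPM at day 0, 6680.0, 5788, 7313 and 6698 at day 1 and 12457, 13084, 13436 and 13476 at day 12. The lowest library of day 1 lay below the highest of day 0, and day 12 was separate from both. The log2 change was 0.22 ± 0.07 at day 1 (adjusted p = 0.0142) and 1.20 ± 0.07 at day 12 (adjusted p = 7.94e-10). COL1A2 (7:94394561-94431232, + strand) rose from 4155, 3977, 4008 and 4128 CPM to 6732, 6162, 6832 and 6725 at day 1 and 8164, 8151, 8042 and 8249.8 at day 12. Its days did not overlap, with most of the change at day 1 (0.70 ± 0.05, adjusted p = 2.97e-08) and 1.00 ± 0.05 in all by day 12. The per-kb ratio of COL1A1 to COL1A2 was 1.59 ± 0.00607, 1.14 ± 0.0612 and 1.83 ± 0.0699 over the days. The difference between the lines at the last day was 2.13 ± 0.11 for COL1A1 and 3.43 ± 0.08 for COL1A2.

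Type III collagen, made from COL3A1 alone and typical of extensible and repairing tissue, was the collagen of highest per-kb level in C2C12 at every day. Col3a1 stood at 8775, 9140.4, 10006 and 8901 CPM at day 0, 10644, 10233, 10988 and 10505 at day 1 and 9242, 8909, 9330.2 and 9345 at day 6. Day 1 lay above the other days, which overlapped, and the log2 change was 0.20 ± 0.04 at day 1 (adjusted p = 3.98e-04) and 0.00 ± 0.04 at day 6 (adjusted p = 0.998). As other collagens fell around it, its share of the collagen counts went from 36.7% ± 1.20 (SD, n = 4) to 44.2% ± 0.825 and 60.8% ± 0.756, while that of Col1a2 went from 20.6% ± 0.412 to 14.1% ± 0.265 and 6.34% ± 0.123. In LHCN-M2, COL3A1 (2:188974320-189012746, + strand) held 639, 590.1, 657 and 674 CPM at day 0, 2176, 1989, 2134 and 2093 at day 1 and 2899, 2823, 2695 and 2857 at day 12. All 4 libraries of each day lay above those of the day before, by 1.71 ± 0.06 at day 1 and 2.14 ± 0.06 by day 12 on the log2 scale (adjusted p = 6.47e-13). Its share of the collagen counts was 4.42% ± 0.215, 10.3% ± 0.316 and 9.02% ± 0.441, and COL1A1 had the highest per-kb level of the family at every day.

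**Figure D3:**
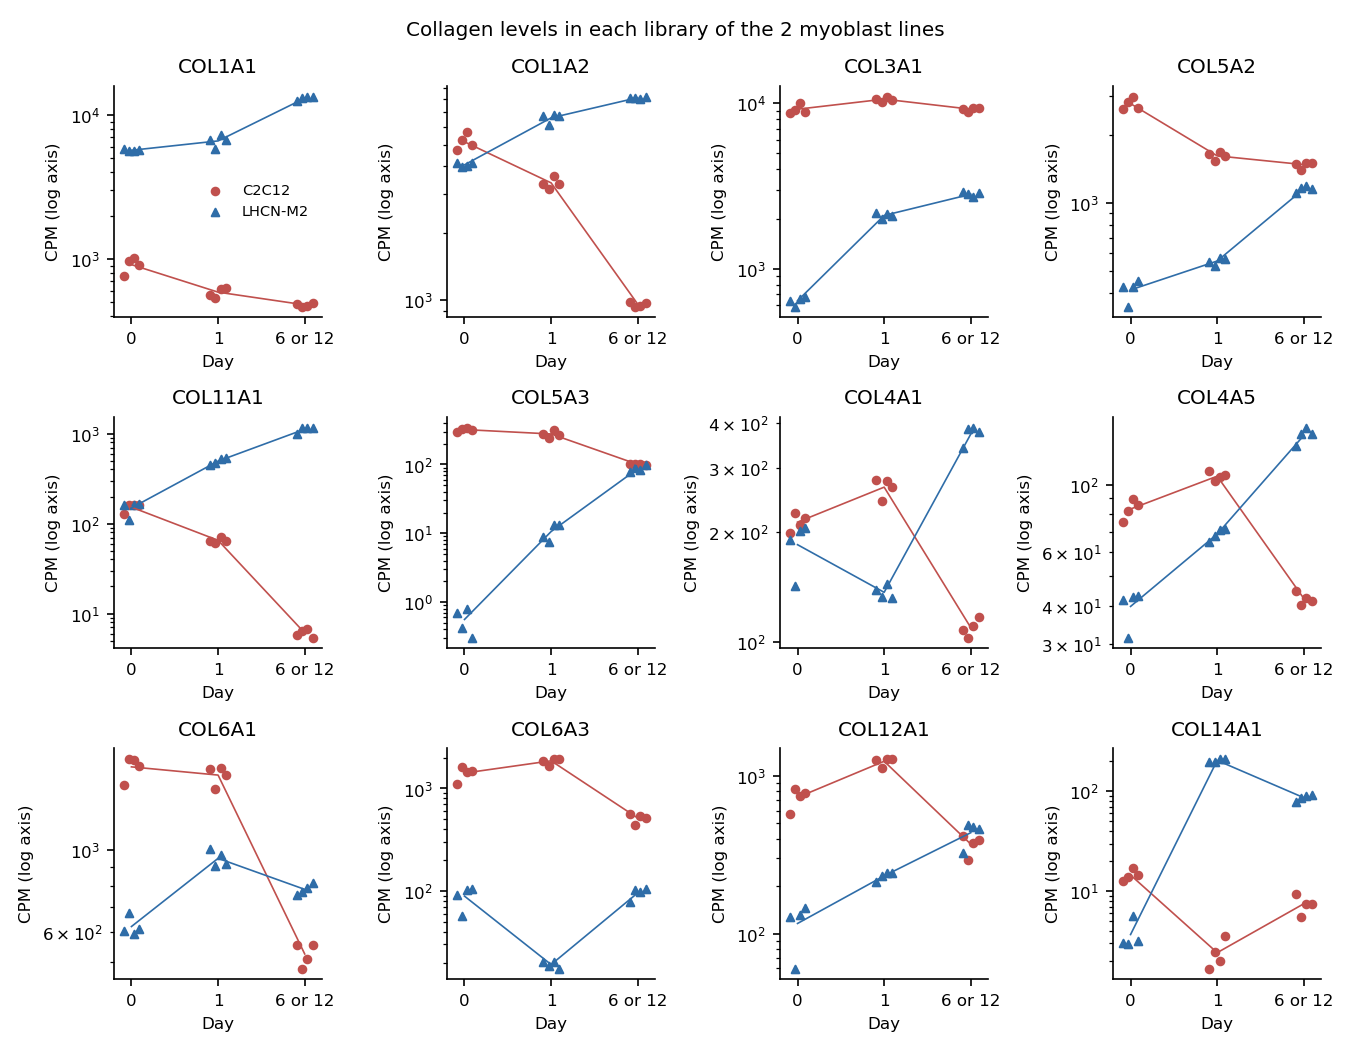
CPM in each library (y axes, log scale, each panel its own range) by day (x axes) for 12 collagen genes, C2C12 as circles and LHCN-M2 as triangles, with lines through the group means. COL1A2, COL11A1, COL4A5 and COL12A1 fell in C2C12 and rose in LHCN-M2 by the last day, and COL6A3 dipped at day 1 in LHCN-M2, from a mean of 88.9 to 19.1 CPM.

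Types V and XI sit inside type I fibrils and regulate fibril assembly and diameter; their chains can mix in 1 molecule. Col5a1 stood at 1046, 1252, 1234 and 1168 CPM at day 0, 812, 721, 862 and 801 at day 1 and 657, 566, 588 and 612 at day 6, each day below the one before (-0.96 ± 0.06 by day 6, adjusted p = 3.14e-11). Col5a2 fell from 2602, 2820.3, 2969.5 and 2652 CPM to 1646, 1535, 1678 and 1623 at day 1 and 1497, 1405, 1509.8 and 1514 at day 6. Most of its change (-0.90 ± 0.05 by day 6, adjusted p = 9.14e-13) was present at day 1 (-0.77 ± 0.05). Col11a1 fell furthest of the class, from 129, 160.4, 160.4 and 159 CPM to 64.6, 60.8, 71.7 and 63.4 at day 1 and 5.85, 6.39, 6.68 and 5.41 at day 6. The days were far apart, and the change was -1.22 ± 0.07 at day 1 and -4.65 ± 0.09 by day 6 (adjusted p = 8.22e-20). The per-kb ratio of Col11a1 to Col5a1 accordingly went from 0.0870 ± 0.00347 (SD, n = 4) to 0.0548 ± 0.00173 and 0.00678 ± 0.000956.

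In LHCN-M2 the ratio of the same pair rose, from 0.376 ± 0.0322 to 1.03 ± 0.0565 and 1.80 ± 0.0378. COL11A1 stood at 161, 109.9, 160.3 and 166 CPM at day 0, 447, 467, 527 and 539 at day 1 and 996, 1152, 1170.2 and 1162 at day 12, with no overlap between days and day 0 replicate 2 the lowest of all. The log2 change by day 12 was 2.91 ± 0.12 (adjusted p = 3.99e-11), and it differed from that of C2C12 by 7.56 ± 0.17 (adjusted p = 2.95e-21). COL5A1 went from 513, 409.8, 512 and 506 CPM at day 0 to 574, 537, 644 and 615 at day 1 and 667, 785, 824 and 795 at day 12 (0.66 ± 0.09 by day 12, adjusted p = 2.09e-05). COL5A2, a neighbour of COL3A1 on chromosome 2, went from 425, 348, 424 and 453 CPM at day 0 to 549, 527, 572 and 568 at day 1 and 1112, 1164, 1191 and 1159 at day 12 (1.49 ± 0.08, adjusted p = 4.21e-10). Every day 1 library lay above every day 0 library for both genes.

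COL5A3, a minor type V chain, showed the largest difference between the lines of all members at the last day. It stood at 0.703, 0.424, 0.801 and 0.304 CPM in LHCN-M2 at day 0, 8.93, 7.46, 12.98 and 13.04 at day 1 and 77.1, 89.0, 83.6 and 97.5 at day 12 (7.29 ± 0.26, adjusted p = 5.67e-12). Mouse Col5a3 fell from 292, 329, 345 and 322 CPM to 280.4, 247, 313 and 271 at day 1 and 103, 100.03, 101 and 97.2 at day 6 (-1.68 ± 0.07, adjusted p = 5.92e-15). The level was much lower in LHCN-M2 than in C2C12 at day 0, and by the last day the ranges were close. The difference in change was 8.97 ± 0.25 (adjusted p = 7.99e-20). The small day 1 fall of mouse Col5a3 (-0.21 ± 0.06, adjusted p = 0.00877) lost its call when any 1 of 5 libraries was left out, with adjusted p between 0.0507 and 0.132.

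The lesser fibrillar genes did not all follow the class. Col24a1, a rarely expressed fibrillar chain, stood at 5.15, 5.16, 5.88 and 5.55 CPM at day 0, 7.29, 7.09, 6.98 and 8.72 at day 1 and 0.388, 0.939, 0.273 and 0.752 at day 6 in C2C12, a change of -3.68 ± 0.25 from day 1 (adjusted p = 4.71e-11). In LHCN-M2, COL24A1 rose from 2.79 ± 0.989 CPM (mean ± SD, n = 4) to 8.24 ± 0.167 at day 12 (1.57 ± 0.20). COL27A1 fell in both lines, with log2 changes of -1.67 ± 0.14 at day 6 in C2C12 and -1.94 ± 0.08 at day 12 in LHCN-M2, and its difference between the lines was not called (-0.27 ± 0.16, adjusted p = 0.121). COL11A2 rose at day 1 in both lines, in C2C12 from 1.72, 0.874, 1.14 and 1.09 to 3.22, 2.71, 3.75 and 2.91 CPM without overlap (1.38 ± 0.27, adjusted p = 2.55e-04). It then fell back, to 0.933 ± 0.257 CPM at day 6 and, in LHCN-M2, from 3.53 ± 0.813 at day 1 to 1.22 ± 0.226 at day 12. The day 1 rise in LHCN-M2 was not called without day 0 replicate 1, day 0 replicate 3 or day 1 replicate 4 (adjusted p = 0.0567, 0.0514 and 0.0790).

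**Figure D4:**
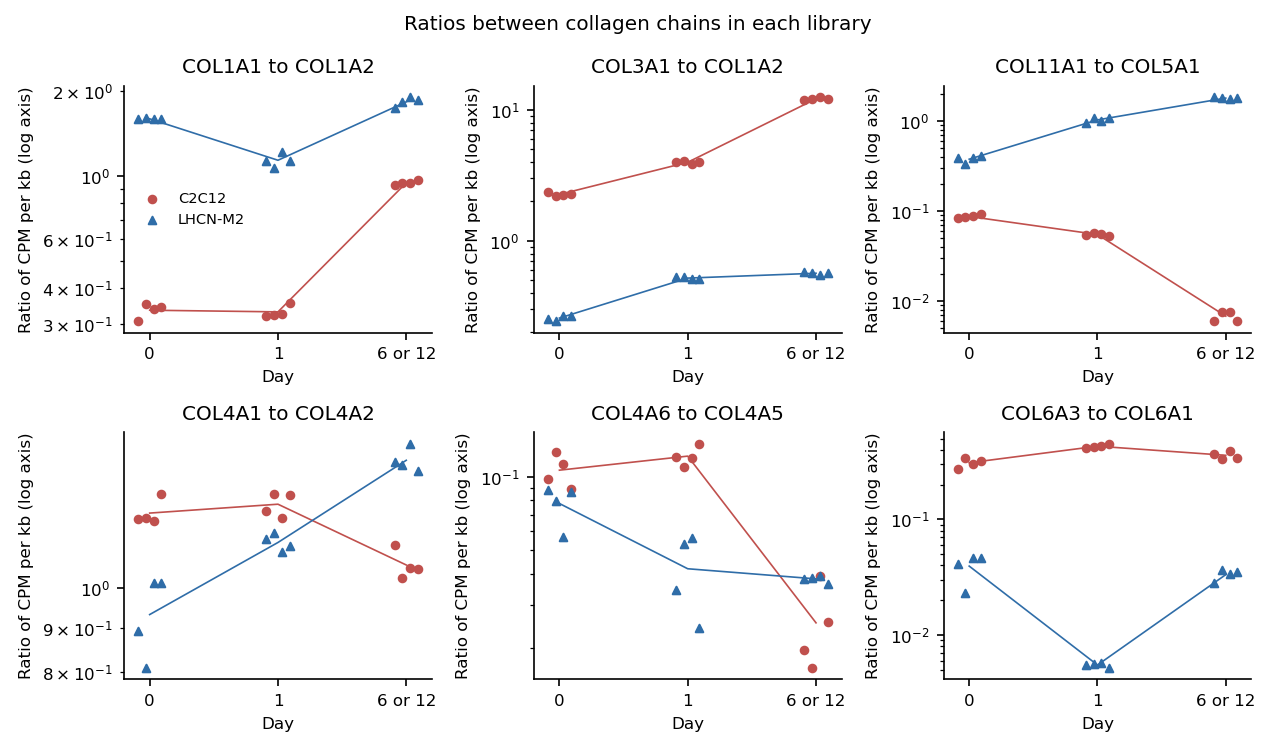
Ratio of the CPM per kb of 1 collagen gene to that of another (y axes, log scale) in each library by day (x axes), C2C12 as circles and LHCN-M2 as triangles, with lines through the group means. COL11A1 to COL5A1 moved in opposite directions in the lines, to means of 0.00678 and 1.80, and COL6A3 to COL6A1 dropped to 0.00549 at day 1 in LHCN-M2.

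The fibril-associated collagens, which decorate fibrils and tie them to other matrix proteins, fell in C2C12 by day 6 in 4 of 5 members and rose in LHCN-M2 by day 12 in 5 of 6. The class medians were -0.98 and 3.88. Beside them, 32.5% of all genes tested fell in C2C12 and 27.1% rose in LHCN-M2. The member not called was Col9a3 in C2C12 and COL9A2 in LHCN-M2, chains of type IX collagen of cartilage, both with group means under 1 CPM. COL9A2 was called higher at day 12 with DESeq2 (1.22, adjusted p = 0.0298) and with only the groups compared (1.20, adjusted p = 0.0498). The same held without day 0 replicate 2 (1.58, adjusted p = 0.0349).

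COL12A1, a large fibril-associated collagen of muscle and tendon whose mutations cause a myopathy, rose at day 1 in both lines and then parted. Mouse Col12a1 stood at 572, 826, 748 and 779 CPM at day 0, 1269, 1122, 1292 and 1280.5 at day 1 and 417, 294, 375 and 393 at day 6. Day 1 lay above and day 6 below all libraries of day 0 (0.76 ± 0.10 at day 1, -0.98 ± 0.10 by day 6, adjusted p = 1.94e-08). Human COL12A1 stood at 128, 59.9, 130.3 and 145 CPM at day 0, 212, 231, 242 and 243 at day 1 and 325, 489.9, 475 and 458 at day 12. Its days did not overlap, and day 0 replicate 2 and day 12 replicate 1 were the lowest of their groups. The change was 1.00 ± 0.21 at day 1 and 1.91 ± 0.21 by day 12 (adjusted p = 1.83e-06), and 0.81 and 1.84 without those 2 libraries.

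COL14A1, which binds fibrils and limits their growth, moved in opposite directions at day 1. Mouse Col14a1 went from 12.6, 13.8, 16.9 and 14.7 CPM to 1.68, 2.47, 1.98 and 3.55 at day 1 and 9.44, 5.57, 7.44 and 7.47 at day 6, a fall (-2.59 ± 0.20, adjusted p = 8.35e-10) with a partial return. Human COL14A1 went from 3.00, 2.94, 5.63 and 3.14 CPM to 196, 195, 211 and 213 at day 1 and 78.4, 86.1, 89.5 and 91.2 at day 12, a rise (5.79 ± 0.18, adjusted p = 3.03e-12) with a partial return (-1.24 ± 0.15). No 2 days overlapped in either line. The difference in the day 1 change was 8.38 ± 0.28 (adjusted p = 1.06e-17), the largest of the 29 members at that day.

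COL16A1, a fibril-associated chain, fell in C2C12 from 113 ± 5.32 CPM (mean ± SD, n = 4) to 22.3 ± 1.68 at day 6 (-2.34 ± 0.08, adjusted p = 3.04e-16). In LHCN-M2 it rose from 8.02 ± 2.29 to 118 ± 4.07 at day 12 (3.87 ± 0.16, adjusted p = 1.99e-11), most of it after day 1. COL19A1, first described in a rhabdomyosarcoma line and found in basement membrane zones, was close to absent at the start and rose late in LHCN-M2, to 36.9, 60.9, 54.9 and 65.3 CPM at day 12 from 0.108, 0.0530, 0.0775 and 0.281 at day 0 and 0.390, 0.890, 0.244 and 0.503 at day 1. Day 12 was separate from the earlier days, which overlapped, and the change was 8.64 ± 0.38 (adjusted p = 4.91e-11), or 9.36 without day 0 replicate 4. COL21A1 rose at both steps, from 0.429 ± 0.161 to 6.44 ± 0.815 CPM (3.89 ± 0.27). Col20a1 in C2C12 averaged under 1 CPM at every day and changed by -3.04 ± 0.78 by day 6 (-4.15 without day 6 replicate 2). It met the count rule through its earlier days, where it was higher, so this call was favoured by that rule.

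Type IV collagen is the network of basement membranes; COL4A1 and COL4A2 form the ubiquitous molecule, and COL4A3 to COL4A6 form the others. All 4 members measured in C2C12 rose at day 1 and ended below day 0, while in LHCN-M2 all 6 ended above day 0. Class medians at the last day were -0.97 and 1.44. The background was 25.9% higher at day 1 and 32.5% lower at day 6 in C2C12, and 27.1% higher at day 12 in LHCN-M2.

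Col4a1 stood at 198, 226, 209 and 219 CPM at day 0, 278, 243, 276 and 266 at day 1 and 107, 103, 110.2 and 117 at day 6. Col4a2 stood at 146, 166, 155 and 151 CPM at day 0, 200.5, 168, 203 and 184 at day 1 and 84.9, 88.5, 92.7 and 98.6 at day 6. In both genes day 1 lay above day 0 in all libraries and day 6 below it. The changes by day 6 were -0.96 ± 0.06 (adjusted p = 7.68e-12) and -0.76 ± 0.07 (adjusted p = 1.76e-09). In LHCN-M2, COL4A1 stood at 189.7, 142, 201 and 206 CPM at day 0, 139, 132, 144 and 131 at day 1 and 340.1, 383, 388 and 377 at day 12. COL4A2 stood at 278, 230.2, 259.5 and 265 CPM at day 0, 159, 149, 171 and 154 at day 1 and 318, 361, 345 and 361 at day 12. These neighbouring genes on chromosome 13 (COL4A1 at 110148963-110307233, COL4A2 at 110305812-110513209) both dipped at day 1 and ended highest, although 1 day 0 library of COL4A1, replicate 2, lay within the day 1 range. Their annotated spans overlap, and the strand setting of the counting is not given in the sources used here, so reads in the overlap could count for either. By day 12 COL4A1 had changed by 1.01 ± 0.10 (adjusted p = 6.19e-07) and COL4A2 by 0.42 ± 0.08 (adjusted p = 2.48e-04). Their per-kb ratio went from 0.932 ± 0.100 to 1.13 ± 0.0258 and 1.41 ± 0.0446 in LHCN-M2, and was 1.22 ± 0.0416, 1.25 ± 0.0387 and 1.06 ± 0.0398 in C2C12.

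COL4A5 and COL4A6 are head-to-head neighbours on the X chromosome whose chains assemble together. Col4a5 fell in C2C12 to 42.3 ± 2.00 CPM at day 6 from 83.1 ± 6.05 at day 0 (-0.97 ± 0.06, adjusted p = 1.08e-11). Col4a6 went from 8.72, 12.3, 11.9 and 9.11 CPM at day 0 to 15.8, 13.4, 14.9 and 17.4 at day 1 and 1.04, 0.787, 1.99 and 1.26 at day 6, the days separate, a change of -3.04 ± 0.20 by day 6 (adjusted p = 2.64e-11). The per-kb ratio of Col4a6 to Col4a5 was 0.106 ± 0.0163 at day 0, 0.121 ± 0.0110 at day 1 and 0.0253 ± 0.0101 at day 6. In LHCN-M2, COL4A5 rose at both steps, from 41.9, 31.5, 42.7 and 43.2 CPM at day 0 to 65.0, 67.8, 71.1 and 71.3 at day 1 and 133, 146, 154 and 146 at day 12 (1.86 ± 0.10, adjusted p = 4.51e-10), and COL4A6 was called against day 0 at day 12 only (2.42 ± 0.5702 to 4.34 ± 0.317 CPM, 0.84 ± 0.25, adjusted p = 0.0113). COL4A3 and COL4A4, chains known best from kidney, reached 2.89 ± 0.259 and 5.03 ± 0.560 CPM at day 12 from under 1 CPM (3.92 ± 0.63 and 3.88 ± 0.57). Day 0 replicate 1 held the most of both at that day, and without it the changes were 4.80 and 4.79.

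Type VI collagen, the beaded filament of the endomysium, is assembled from COL6A1, COL6A2 and a larger chain, usually COL6A3. In C2C12 all 4 measured members fell by day 6, and the class median was -1.56. In LHCN-M2 1 of 5 rose, 1 fell and 3 were not called, with a median of 0.11. The background was 32.5% lower in C2C12, and 27.1% higher and 27.5% lower in LHCN-M2, so the LHCN-M2 counts were near it.

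Col6a1 stood at 1493, 1755, 1739 and 1678 CPM at day 0, 1642, 1452, 1655 and 1586 at day 1 and 554, 479, 509 and 556 at day 6. Col6a2 stood at 546, 687, 681 and 669.8 CPM at day 0, 835, 697, 845 and 793 at day 1 and 254, 231, 225 and 259 at day 6. Col6a3 stood at 1109, 1625, 1438 and 1479 CPM at day 0, 1858, 1669, 1961 and 1958 at day 1 and 559.7, 435, 542 and 520.2 at day 6. All 3 were far lower at day 6, without overlap, with log2 changes of -1.67 ± 0.06, -1.41 ± 0.07 and -1.46 ± 0.09 (adjusted p = 1.81e-15, 6.76e-13 and 1.36e-11). The per-kb ratio of Col6a3 to Col6a1 stayed between 0.272 and 0.452 in every C2C12 library. Col6a4, an alternative to that larger chain, had group means under 1 CPM and changed by -2.61 ± 0.60 by day 6 (-3.27 without day 6 replicate 2).

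The larger chain moved apart from its partners in LHCN-M2. COL6A3 stood at 91.5, 57.4, 102 and 105 CPM at day 0, 20.03, 18.5, 20.4 and 17.4 at day 1 and 78.3, 102, 97.6 and 105 at day 12, so day 1 lay below all others and days 0 and 12 overlapped. The change was -2.22 ± 0.16 at day 1 (adjusted p = 2.50e-08), 2.32 ± 0.16 from day 1 to day 12 (adjusted p = 3.26e-08) and 0.11 ± 0.15 over both (adjusted p = 0.590). COL6A1 stood at 605, 677, 594 and 610.2 CPM at day 0, 1002, 903, 967 and 916 at day 1 and 757, 767, 788 and 814 at day 12, and rose at day 1 (0.61 ± 0.06, adjusted p = 1.62e-06). The per-kb ratio of COL6A3 to COL6A1 was 0.0394 ± 0.0112 at day 0, 0.00549 ± 0.000239 at day 1 and 0.0333 ± 0.00356 at day 12. COL6A2, at 848, 1269.6, 789 and 806 CPM at day 0, 1094, 926, 975.2 and 985 at day 1 and 859.6, 761, 760.0 and 803 at day 12, was not called in any LHCN-M2 comparison. Its day 0 replicate 2 lay far above the other 3, and without that library and day 12 replicate 1 the change was called at day 1 (0.32, adjusted p = 7.66e-06) and from day 1 to day 12 (-0.36, adjusted p = 1.49e-06). The later fall was also called with no filter (adjusted p = 0.0195), a filter of 1 CPM in 4 libraries (0.0464) or only the groups compared (1.91e-04). It was called too without day 0 replicate 3 (0.0445) or 4 (0.0479). COL6A5 and COL6A6, the other alternatives to COL6A3, stayed at or under 1.35 CPM as group means. COL6A5 fell by day 12 (-3.34 ± 0.83, or -4.72 without day 12 replicate 4). It was highest at day 0, so this fall was favoured by the count rule. COL6A6 was called against day 0 at day 1 only (2.69 ± 0.67, or 3.73 without day 0 replicate 1).

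Among the transmembrane collagens, single-pass proteins of the cell surface, changes were large and mostly from low levels. Col23a1, a transmembrane collagen that binds an integrin, had the largest change of any member in C2C12. It was at 0.152, 0, 0.0600 and 0.239 CPM at day 0, 0.0447, 0.216, 0.230 and 0.180 at day 1 and 49.4, 37.6, 39.2 and 38.9 at day 6 (8.41 ± 0.27, adjusted p = 1.44e-16), or 9.03 on the log2 scale without day 0 replicate 4. All 4 libraries of day 6 were high and all 8 earlier ones near 0. COL23A1 in LHCN-M2 rose to 1.03, 1.11, 1.61 and 2.25 CPM at day 12 from 0.108, 0, 0.103 and 0 at day 0 (4.78 ± 0.73, adjusted p = 4.87e-05).

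Col17a1, a collagen of hemidesmosomes, was at 0.0758, 0.121, 0.180 and 0.345 CPM at day 0, 1.48, 1.83, 1.40 and 1.49 at day 1 and 1.09, 2.18, 2.54 and 1.75 at day 6 in C2C12. It was higher at day 1 (3.08 ± 0.42) and day 6 (3.36 ± 0.42, adjusted p = 5.00e-07), without overlap with day 0. In LHCN-M2 its group means were under 1 CPM and it was not called (-2.38 ± 0.95 at day 1, adjusted p = 0.0525; -2.01 ± 0.94 by day 12, adjusted p = 0.0834). The day 1 fall there was called with DESeq2 (-2.43, adjusted p = 0.0365), with any 1 of 4 libraries left out (adjusted p from 0.0232 to 0.0498) and without both libraries that stood apart (-2.32, adjusted p = 0.0468), and the change by day 12 was called without day 12 replicate 3 (-4.28, adjusted p = 0.00389).

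COL25A1 and COL13A1 act at the neuromuscular junction, where muscle-made COL25A1 is needed for motor innervation and COL13A1 for the maturation of the synapse. COL25A1 in LHCN-M2 stood at 6.36, 3.37, 5.76 and 5.06 CPM at day 0, 38.2, 42.4, 47.0 and 40.5 at day 1 and 28.8, 38.0, 34.9 and 34.0 at day 12. It rose at day 1 (3.03 ± 0.16, adjusted p = 6.97e-10), and the later libraries all lay above day 0. The step from day 1 to day 12 was not called (-0.31 ± 0.15, adjusted p = 0.107), but was when only the groups compared were fitted (-0.31, adjusted p = 0.00635). It was also called with day 0 replicate 2 left out (-0.32, adjusted p = 0.00680) and with both libraries that stood apart left out (-0.24, adjusted p = 0.0238). Mouse Col25a1 was rare, at 0.253, 0.121, 0.420 and 0.425 CPM at day 0, 0.626, 0.288, 0.483 and 0.154 at day 1 and 0.0485, 0, 0 and 0 at day 6. Over the 4 libraries of a day it had 44, 67 and 2 counts, and the day 6 level was 0.0429 of that of day 0 (95% counting interval 0.00504 to 0.165, which covers counting error only). Mouse Col25a1 met the count rule through its earlier days, where it was higher, so its fall was favoured by that rule. COL13A1 in LHCN-M2 fell from 17.6, 22.1, 16.7 and 15.0 CPM at day 0 to 1.15, 2.11, 1.87 and 2.25 at day 1, without overlap, and stood at 5.63, 7.36, 7.10 and 7.83 at day 12. The change was -3.27 ± 0.20 at day 1 (adjusted p = 3.00e-09) and -1.35 ± 0.18 by day 12 (adjusted p = 1.32e-05). Mouse Col13a1 did not meet the count rule, with no counts at days 0 and 1 and 36 over the 4 libraries of day 6. That is at least 11.3-fold higher than day 0, taking 3 counts over the group as the floor.

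COL15A1 and COL18A1 are multiplexins, proteoglycan collagens of basement membranes; loss of type XV causes a mild skeletal myopathy in mice. COL15A1 in LHCN-M2 stood at 18.9, 14.2, 18.1 and 17.2 CPM at day 0, 22.7, 19.9, 17.2 and 17.997 at day 1 and 171, 208, 216 and 209.9 at day 12. Days 0 and 1 overlapped and day 12 stood far above (3.56 ± 0.12, adjusted p = 3.56e-12). In C2C12 it was too low to test, at 0.354, 0.241, 0 and 0.159 CPM at day 0, 0.224, 0.0480, 0.414 and 0.283 at day 1 and 0.194, 0.121, 0 and 0.242 at day 6. Col18a1 rose and then fell in C2C12, from 129 ± 6.50 CPM (mean ± SD, n = 4) to 228 ± 19.2 and 101 ± 4.05 (0.83 ± 0.06 at day 1, -0.35 ± 0.06 by day 6). COL18A1 in LHCN-M2 had a smaller rise (0.28 ± 0.08 by day 12, adjusted p = 0.00944; 0.40 without the 2 libraries that stood apart).

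The short-chain collagens form hexagonal networks. COL8A1, of vessels and cornea, moved in opposite directions, from 171 ± 9.66 to 224 ± 9.39 CPM by day 6 in C2C12 (0.39 ± 0.05, adjusted p = 1.20e-06) and from 514 ± 63.2 to 379 ± 22.5 by day 12 in LHCN-M2 (-0.44 ± 0.09, adjusted p = 5.11e-04). COL28A1 was the other member higher in C2C12 and lower in LHCN-M2. At day 1, COL8A1 in LHCN-M2 was called, among the alternatives run, only without day 0 replicate 2 (-0.24, adjusted p = 9.89e-04) or without both libraries that stood apart (-0.23, adjusted p = 7.67e-05). COL8A2 rose at day 1 in both lines (1.03 ± 0.13 and 1.27 ± 0.16) and reached 14.9 ± 1.98 CPM in LHCN-M2 at day 12, while in C2C12 it returned to 5.22 ± 0.523. COL10A1, a marker of hypertrophic cartilage, rose in LHCN-M2 from 0.703, 0.477, 0.671 and 0.655 CPM at day 0 and 0.488, 1.47, 1.93 and 1.25 at day 1 to 23.4, 23.0, 22.5 and 20.2 at day 12 (5.14 ± 0.29, adjusted p = 9.14e-10). The 4 libraries of day 12 were all far above the rest. The 6 bone and cartilage markers summed to between 94.8 and 127 CPM at day 0 and between 51.33 and 55.05 at day 12, with ACAN and SP7 at 0 at day 12.

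Of the remaining members, COL7A1, the anchoring fibril of epithelia, fell by the last day in both lines, from 7.501 ± 1.13 to 4.86 ± 0.610 CPM at day 6 of C2C12 (-0.62 ± 0.17) and, at day 12 of LHCN-M2, to 22.5 ± 0.895 CPM from 69.0 ± 4.58 (-1.62 ± 0.08). The fall was larger in LHCN-M2 (-0.997 ± 0.19, adjusted p = 5.64e-05). COL28A1, a beaded collagen of peripheral nerve, rose in C2C12 from 2.02 ± 0.255 to 3.91 ± 1.16 CPM and fell in LHCN-M2 from 3.65 ± 0.980 to 0.912 ± 0.277. COL26A1 had no counts in LHCN-M2 at day 0 and 1.42, 0.571, 1.39 and 0.968 CPM at day 12, which is at least 57.8-fold higher with the same floor of 3 counts. Mouse Col10a1 was under 1 CPM with no call. Col22a1, a collagen of the muscle-tendon junction that missed the count rule, had 2 counts over the 4 libraries at day 1 and 58 at day 6, a ratio of 32.1 (95% counting interval 8.505 to 272).

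Collagen chains are modified, folded, trimmed and crosslinked by a fixed set of enzymes, most of which act in the endoplasmic reticulum or on the secreted chain. Of a list of 35 processing genes, 32 were tested in C2C12, of which 8 rose and 19 fell by day 6 (median -0.30), beside 33.1% and 32.5% of all genes. In LHCN-M2 33 were tested, of which 9 rose and 15 fell by day 12 (median -0.16), beside 27.1% and 27.5% of all genes, so the share that rose was close to the background. The difference between the lines at the last day had a median of -0.04 over 31 of them, with 10 higher and 12 lower in LHCN-M2, shares close to the 31.2% and 40.0% of all symbols. The prolyl and lysyl hydroxylases and their partners, which stabilise the helix and prepare crosslinks, had 10 of 13 members lower and 1 higher at day 1 in C2C12, and 8 of 13 lower and 2 higher in LHCN-M2. Of all genes, 24.4% and 23.5% were lower. By the last day 5 were higher and 6 lower in C2C12, and 2 higher and 9 lower in LHCN-M2.

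Lysyl oxidase, encoded by LOX, starts the crosslinking of fibrils. It fell in C2C12 from 1930.3, 2012, 2264 and 2079 CPM at day 0 to 908, 930.1, 943 and 981 at day 6 (-1.14 ± 0.05, adjusted p = 2.39e-14) and in LHCN-M2 from 379, 329, 441 and 434 at day 0 to 131, 136, 146 and 134 at day 12 (-1.53 ± 0.09, adjusted p = 1.34e-09). In both lines the groups were separate, and the changes at day 1 were already -0.77 ± 0.05 and -1.68 ± 0.09. PLOD2, a lysyl hydroxylase of the chain ends, fell at day 1 in both lines (-0.65 ± 0.05 and -1.05 ± 0.08), as did PLOD3 in LHCN-M2 (-0.98 ± 0.09). LOXL4, of the same oxidase family as LOX, went opposite ways, -1.72 ± 0.09 by day 6 in C2C12 and 2.66 ± 0.14 by day 12 in LHCN-M2, and LOXL3 fell in LHCN-M2 (-2.21 ± 0.14). Loxl2 rose in C2C12 (1.22 ± 0.08), and Loxl1 rose at day 1 (0.69 ± 0.06) and then fell (-1.60 ± 0.06).

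The procollagen peptidases, which cut the ends off secreted chains, had a median of -0.52 in C2C12 (1 higher, 5 lower of 6) and 1.09 in LHCN-M2 (3 higher, 2 lower of 6). The background was 33.1% higher and 32.5% lower in C2C12, and 27.1% and 27.5% in LHCN-M2, so the fallers in LHCN-M2 were near it. Adamts2, the main enzyme of the amino end, fell in C2C12 from 246 ± 19.9 CPM (mean ± SD, n = 4) to 76.5 ± 5.20 at day 6 (-1.68 ± 0.07, adjusted p = 8.39e-15), and Bmp1, of the carboxyl end, fell after day 1 (-1.25 ± 0.05). ADAMTS14 rose in LHCN-M2 from 8.14 ± 0.908 to 45.2 ± 4.60 CPM (2.47 ± 0.12, adjusted p = 1.57e-10); in C2C12 it was higher at day 1 (0.60 ± 0.09). The enhancer gene Pcolce2 rose in C2C12 (0.78 ± 0.05). TMEM38B, a channel of the endoplasmic reticulum needed for collagen modification in bone, rose in both lines, by 1.03 ± 0.10 and 2.01 ± 0.10. In LHCN-M2, P3H3 fell from 134 ± 42.5 CPM, day 0 replicates ranging from 109 to 198, to 45.1 ± 5.27 (-1.57 ± 0.17). P4HA2, a prolyl hydroxylase subunit, rose at day 1 in LHCN-M2 (0.78 ± 0.06) and after day 1 in C2C12 (0.73 ± 0.05). From day 1 to day 12 CRTAP, a partner of the prolyl hydroxylases, fell (-0.93 ± 0.06) and P3H2 rose (1.48 ± 0.10).

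**Figure D5:**
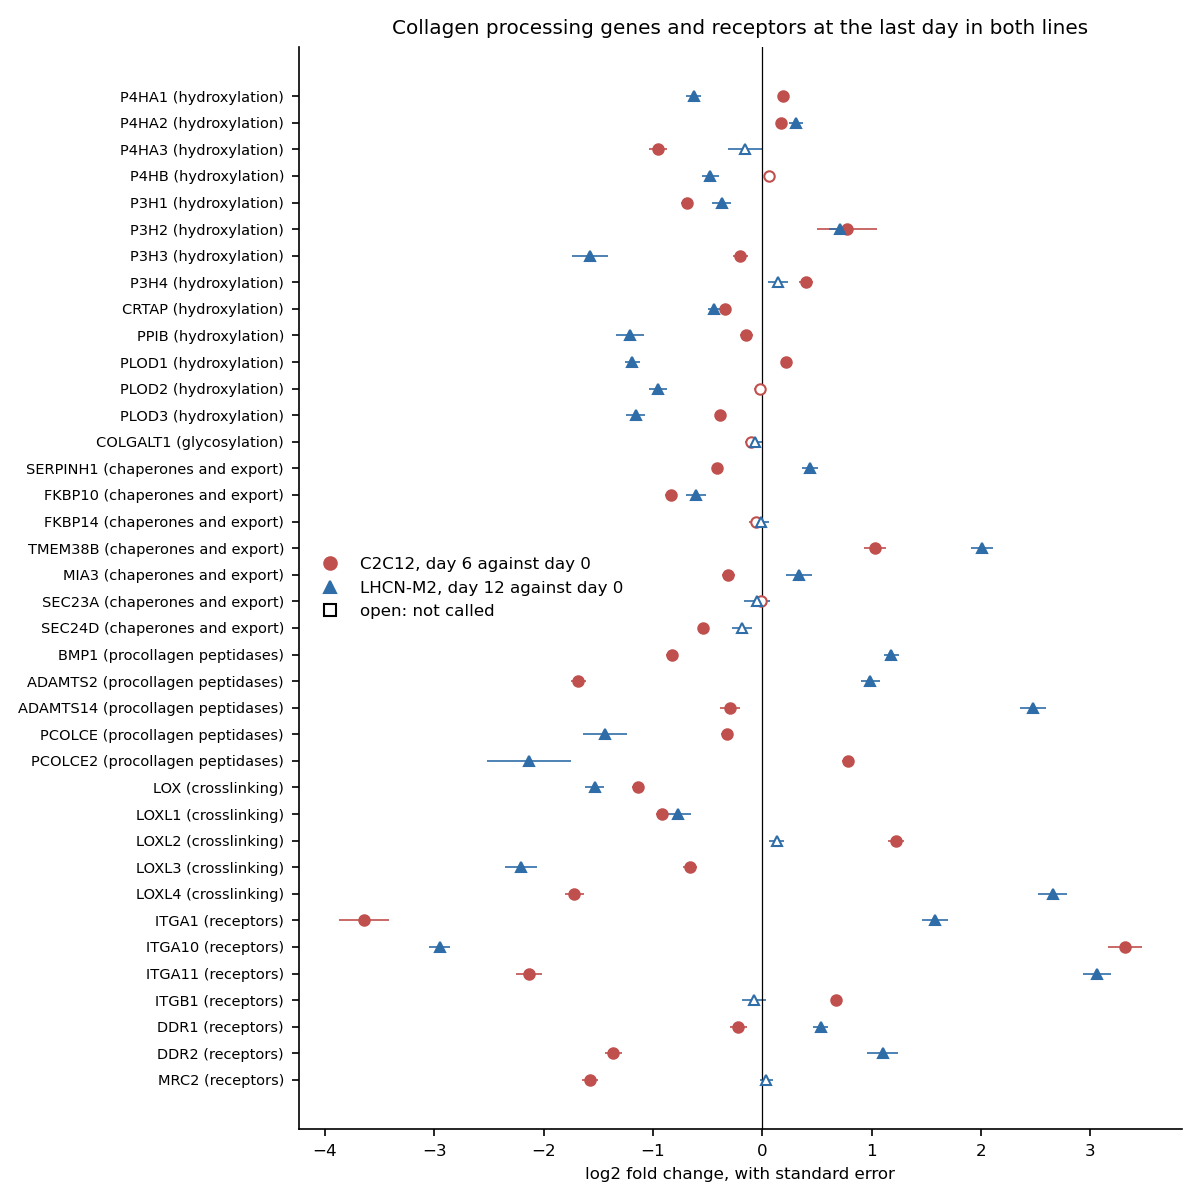
The log2 fold change of the last day against day 0 with its standard error (x axis) for 31 collagen processing genes and 7 collagen receptors tested in both lines (y axis), C2C12 as circles (day 6) and LHCN-M2 as triangles (day 12); open symbols were not called. LOX lies left of 0 in both lines, at -1.14 and -1.53, and ITGA1, ITGA10 and ITGA11 lie on opposite sides.

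Among the collagen receptors, ITGA1, ITGA10 and ITGA11, which encode integrin alpha chains, changed in opposite directions in the lines. By the last day 2 of 7 receptors tested in C2C12 rose and 5 fell (median -1.36), beside 33.1% and 32.5% of all genes. In LHCN-M2 4 of 8 rose and 2 fell (median 0.28), beside 27.1% and 27.5%, so the risers in C2C12 and the fallers in LHCN-M2 were near the background. ITGA11, a receptor for fibrillar collagen, changed by -2.13 ± 0.12 in C2C12 and 3.06 ± 0.13 in LHCN-M2 (difference 5.19 ± 0.20, adjusted p = 4.22e-17). ITGA1, which also binds basement membrane collagen, changed by -3.64 ± 0.23 and 1.58 ± 0.12 (difference 5.22 ± 0.28, adjusted p = 2.49e-14). ITGA10 went the other way, with 3.31 ± 0.16 and -2.95 ± 0.10 (difference -6.26 ± 0.16, adjusted p = 3.89e-20). The receptor kinase DDR2 fell in C2C12 (-1.36 ± 0.08) and rose in LHCN-M2 (1.10 ± 0.14), and MRC2, the endocytic collagen receptor, fell in C2C12 (-1.57 ± 0.07) with no call in LHCN-M2 (0.04 ± 0.06).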

How the data were processed

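The values are read counts per gene as deposited by the authors, 1 table per line, with a gene length in bases in each. The tools named per the submitters' processing notes are featureCounts 2.0.6, HISAT2 2.2.1, StringTie 2.2.3 and fastp, and the builds mm10, GRCh38 and hg38; neither the annotation release nor the strand setting is given in the sources used here. Per the labels, messenger RNA was caught on poly-T beads and copied with random hexamers.

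From the counts, each line was fitted over its 12 libraries with the day as the only factor (edgeR 4.0.16, limma 3.58.1, R 4.3.3; filterByExpr, TMM, quasi-likelihood test, Benjamini-Hochberg adjustment over all genes tested, threshold 0.05). Tested genes held 99.9% of the counts in both lines. The difference between the lines was a line-by-day interaction over symbols found once in both tables. DESeq2 1.42.0 was an alternative, beside the other settings listed in the closing section. CPM uses TMM-scaled library sizes; levels per kb divide by the deposited length, which appears to cover all exons of a gene, so they compare genes only roughly. Intervals and floors reflect counting error alone. The fits were tested on simulated data.

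Values by library are given for the main collagens of each class and for the 3 members of largest change in each comparison with a group mean of at least 1 CPM; processing genes are named when among the 3 largest called changes in a direction with a group mean of at least 10 CPM. The members and lists were chosen with earlier results of these data known. Promoter sequences are from RefSeq (GRCm38.p6); human promoters and proteins were not used here.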

Additional observations from a re-analysis of the deposited data

Results flagged for a closer look

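In 14 of 123 groups of 4 libraries with a mean of at least 10 CPM, 1 library lay apart from the other 3, by a gap that exceeds Dixon's 95% critical value; chance gives about 1 in 20 such groups. Of these 14, 6 came from LHCN-M2 day 0 replicate 2, out of 19 groups of that day. The library of C2C12 day 6 replicate 2 held 1405 CPM for Col5a2 against 1497 to 1514. The library of C2C12 day 0 replicate 1 held 546 CPM for Col6a2 against 669.8 to 687 and 129 CPM for Col11a1 against 159 to 160.4. The library of C2C12 day 1 replicate 2 held 1122 CPM for Col12a1 against 1269 to 1292. The library of C2C12 day 6 replicate 1 held 49.4 CPM for Col23a1 against 37.6 to 39.2. The library of LHCN-M2 day 1 replicate 2 held 6162 CPM for COL1A2 against 6725 to 6832. The library of LHCN-M2 day 0 replicate 2 held 1269.6 CPM for COL6A2 against 789 to 848, 409.8 CPM for COL5A1 against 506 to 513, 109.9 CPM for COL11A1 against 160.3 to 166, 419.9 CPM for COL8A1 against 537 to 555, 31.5 CPM for COL4A5 against 41.9 to 43.2 and 93.4 CPM for COL18A1 against 75.5 to 77.5. The library of LHCN-M2 day 12 replicate 1 held 996 CPM for COL11A1 against 1152 to 1170.2 and 171 CPM for COL15A1 against 208 to 216.

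For 21 members at day 1 and 27 at the last day, the log2 change differed between the lines by the test of the difference itself (edgeR, Benjamini-Hochberg adjusted p under 0.05). Values are the change in LHCN-M2 minus that in C2C12. At day 1 the change was higher in LHCN-M2 for 13 members, COL14A1 (8.38), COL5A3 (4.47), COL11A1 (2.95), COL25A1 (2.67), COL3A1 (1.51), COL1A2 (1.31), COL5A2 (1.19), COL1A1 (0.85), COL5A1 (0.84), COL24A1 (0.72), COL6A1 (0.68), COL16A1 (0.49) and COL4A5 (0.43). At day 1 the change was lower in LHCN-M2 for 8 members, COL17A1 (-5.47), COL6A3 (-2.62), COL7A1 (-1.05), COL4A2 (-0.99), COL28A1 (-0.90), COL4A1 (-0.75), COL18A1 (-0.60) and COL8A1 (-0.49). At the last day the change was higher in LHCN-M2 for 22 members, COL5A3 (8.97), COL11A1 (7.56), COL25A1 (6.97), COL16A1 (6.22), COL14A1 (5.50), COL24A1 (4.78), COL10A1 (4.38), COL4A6 (3.88), COL1A2 (3.43), COL8A2 (3.31), COL12A1 (2.90), COL4A5 (2.84), COL5A2 (2.39), COL3A1 (2.14), COL1A1 (2.13), COL6A1 (2.00), COL4A1 (1.97), COL5A1 (1.62), COL6A3 (1.56), COL6A2 (1.19), COL4A2 (1.19) and COL18A1 (0.63). At the last day the change was lower in LHCN-M2 for 5 members, COL17A1 (-5.38), COL23A1 (-3.62), COL28A1 (-2.95), COL7A1 (-0.997) and COL8A1 (-0.83). Leaving out the library with the highest level in its group made some of these larger at the last day. The difference was -7.61 for COL17A1 without LHCN-M2 day 12 replicate 3 and -4.24 for COL23A1 without C2C12 day 0 replicate 4. For COL25A1 it was 9.34 without C2C12 day 6 replicate 1. Mouse Col25a1 then had no counts left at day 6, so the size of that value is not measured. The COL23A1 difference was not called without LHCN-M2 day 0 replicate 1 (adjusted p = 0.0763) or replicate 3 (adjusted p = 0.0753). At day 1 the COL24A1 difference was not called when any 1 of 12 libraries was left out (adjusted p from 0.0501 to 0.0909), the COL28A1 difference when any 1 of 6 was (0.0534 to 0.0844), and the COL16A1 difference without C2C12 day 1 replicate 2 (0.0502).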

How the results depend on the processing

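The counts of collagen genes called in each comparison stayed within 1.5 times their value under every alternative run: DESeq2, RLE size factors, no filter (within lines), a filter of 1 CPM in 4 libraries, only the groups compared (within lines), a replicate block, each library left out in turn, and the libraries of LHCN-M2 that stood apart left out together. The ranges included 18 to 24 members higher at day 1 in LHCN-M2, against 23, and 6 to 10 lower from day 1 to day 12, against 8. Of 5533 alternative values for 271 single-gene results, 5427 kept their call or lack of one, 64 lost the call and 42 gained it. Where either fit made a call, 0 changed direction. Direction was not compared for results called in neither fit. With the replicate block, 21 members in place of 23 were higher at day 1 in LHCN-M2 and 7 in place of 8 had a lower change there than in C2C12 at day 1; the other counts were the same. The block ended the calls of COL18A1 (0.24, adjusted p = 0.0614) and COL26A1 (4.72, adjusted p = 0.0550) at day 1 in LHCN-M2 and of the day 1 difference of COL28A1 (-0.90, adjusted p = 0.0647). Same-numbered libraries of different days correlated between -0.10 and 0.0914, and 6 of 24 correlated best with their own number. The labels do not say whether a number marks a shared culture, and weak correlations cannot show that it does not. Among called values only, leaving out 1 library moved 19, of 11 members, by over 1.5 times. They included the day 1 rises in LHCN-M2 of COL19A1 (1.89, or 2.62 without day 0 replicate 4) and COL4A4 (1.59, or 2.51 without day 0 replicate 1). The COL4A4 rise was not called with DESeq2 (adjusted p = 0.0592). The day 1 rise of COL26A1 there was 4.77, or 4.02 and not called (adjusted p = 0.0533) without day 1 replicate 2. COL26A1 had no counts at day 0, so the size of that rise is not measured. Depth limits members under 1 CPM, where a group may hold only a few counts.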
